A study of Mus musculus with 12 samples.

Results

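mRNA of mouse embryonic stem cells that overexpress H3.1K36M was compared directly with mRNA of cells that overexpress H3.1K9M, 2 libraries in each group, over 12530 of 23354 genes in the files. A gene was kept where its FPKM, the number of fragments scaled by transcript length and library size, was at least 1 in at least 2 of the 4 libraries. Of these genes, 11706 reached that level in all 4 libraries, 369 in 3 and 455 in 2. The cells are stable lines of J1, a male embryonic stem cell line, grown on inactivated mouse embryonic fibroblast feeders in serum with leukemia inhibitory factor, and all groups share this culture. One group carries H3.1K36M, histone H3.1 with methionine in place of lysine 36, and the other carries H3.1K9M, with methionine in place of lysine 9. Cells with wild-type H3.1, labelled H3.1WT, are set beside them as context, again with 2 libraries, and 3 hairpin groups of the same series entered only the estimate of the spread. The labels do not give the promoter of the transgenes, whether a line is 1 clone, or whether the libraries of a group came from separate cultures, so p-values measure no more than how far these libraries lie apart, and that spread may be technical. The title of the series is about H3K36me3 and single nucleotide variation. The direct comparison of the mutants asks in which transcripts lines with the one or the other methionine differ.

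H3.1 is the histone H3 that is laid down during DNA replication. Methylation of its lysine 9 marks silent chromatin, is written by enzymes such as Suv39h1, Suv39h2 and Setdb1, and is bound by HP1 proteins. Methylation of lysine 36 covers the bodies of transcribed genes and wide intergenic domains, is written by Setd2 and the Nsd enzymes, and is read by the DNA methyltransferases Dnmt3a and Dnmt3b and by the mismatch repair protein Msh6. Methionine at either site is known to lower methylation of that same lysine across the genome by holding its methyltransferases. Histone marks were not measured in these libraries.

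The H3.1K36M libraries held about 26600000 and 25600000 fragments and the H3.1K9M libraries about 27900000 and 30400000, as recovered from the steps between low FPKM values. At this depth 1 FPKM of a 2 kb transcript rested on 46.4 to 55.4 fragments. The libraries of H3.1K36M were much closer to each other than those of H3.1K9M: the difference between replicates had an SD over genes of 0.216 in H3.1K36M and 0.403 in H3.1K9M on the log2(FPKM + 1) scale. Over 1361 genes with 1 annotated transcript, the H3.1K36M replicates differed by 1.90 times the variance that counting fragments gives, against 37.73 times for H3.1K9M over 1369 genes, and 6.86 to 17.37 times in the other 4 groups. The H3.1K36M libraries therefore stood close to counting error, so the overall counts and those of the gene lists are also given with the average of these libraries entered as 1 sample. Leaving out either H3.1K36M library gave list counts within 1 gene of the averaged ones in each direction. Of the stem cell markers, Pou5f1, the central pluripotency factor, was at 641 and 627 FPKM in H3.1K36M and at 644 and 716 FPKM in H3.1K9M, and the difference did not pass the test (adjusted p = 0.532). Sox2, Sall4 and Dppa5a also did not pass, and Nanog and Zfp42 were higher in H3.1K36M. RNA of the feeders was present in every library, and 36 of 37 tested fibroblast markers did not pass the test, with a median difference of 0.03 as deposited and -0.03 after either rescaling described further on. No feeder marker passed with the H3.1K36M libraries averaged. The median was 0.42 without H3.1K9M replicate 1, with 3 markers higher, and -0.43 without H3.1K9M replicate 2. Their mean level was 5.20 and 5.19 in H3.1K36M, 5.53 and 4.70 in H3.1K9M and 4.16 and 4.84 in H3.1WT on the log2(FPKM + 1) scale, so the H3.1K36M values lay between those of H3.1K9M. Sfrp1, a secreted Wnt inhibitor, was the marker that rose (8.25 and 7.96 FPKM in H3.1K36M, 4.76 and 5.35 FPKM in H3.1K9M). Entering the feeder mean as a covariate kept the call of all 105 called genes picked by the naming rule. The average feeder level was close between H3.1K36M and H3.1K9M, so the covariate could move this contrast little. The kept calls therefore say little about the part of feeder RNA.

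Genes that H3.1K36M cells expressed more than H3.1K9M cells were led by germline and early embryo genes, many of them on the X chromosome. Genes expressed less were led by the keratin genes Krt8 and Krt18, the primitive streak gene T and the Wnt pathway gene Lef1. In limma's moderated test over all 12 libraries, 740 genes were higher in H3.1K36M (5.91% of tested genes) and 345 were lower (2.75%), 1085 in all (8.66%), at an adjusted p under 0.05. Most of these differences were small. The median size was 0.60 on the log2(FPKM + 1) scale, 518 were under 1.5-fold on that scale, 148 genes were at least 1 unit higher and 35 at least 1 unit lower. With the H3.1K36M libraries averaged into 1 sample, 267 genes passed (2.13%), of which 212 were higher and 55 lower, and in a fit over the 4 libraries alone 124 passed (0.990%). The share of calls that were higher was 68.2% as deposited, 54.5% (546 higher, 456 lower) after median-of-ratios scaling and 56.0% (605 higher, 476 lower) after quantile normalization. The median difference of all genes was 0.038 as deposited, -0.017 after median-of-ratios scaling and -0.001 after quantile normalization. In the same fit and over the same genes, 626 genes (5.00%) differed between H3.1K36M and H3.1WT and 40 (0.319%) between H3.1K9M and H3.1WT. Those comparisons share libraries with the direct one. The H3.1WT mean lay between the means of the mutants for 615 of the 740 higher genes and 265 of the 345 lower genes, a description that follows in part from choosing genes where the mutants differ. Counts over gene lists are to be read against the shares of 5.91% higher and 2.75% lower over all tested genes, and the lists were drawn up with earlier results of these data known.

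**Figure D1:**
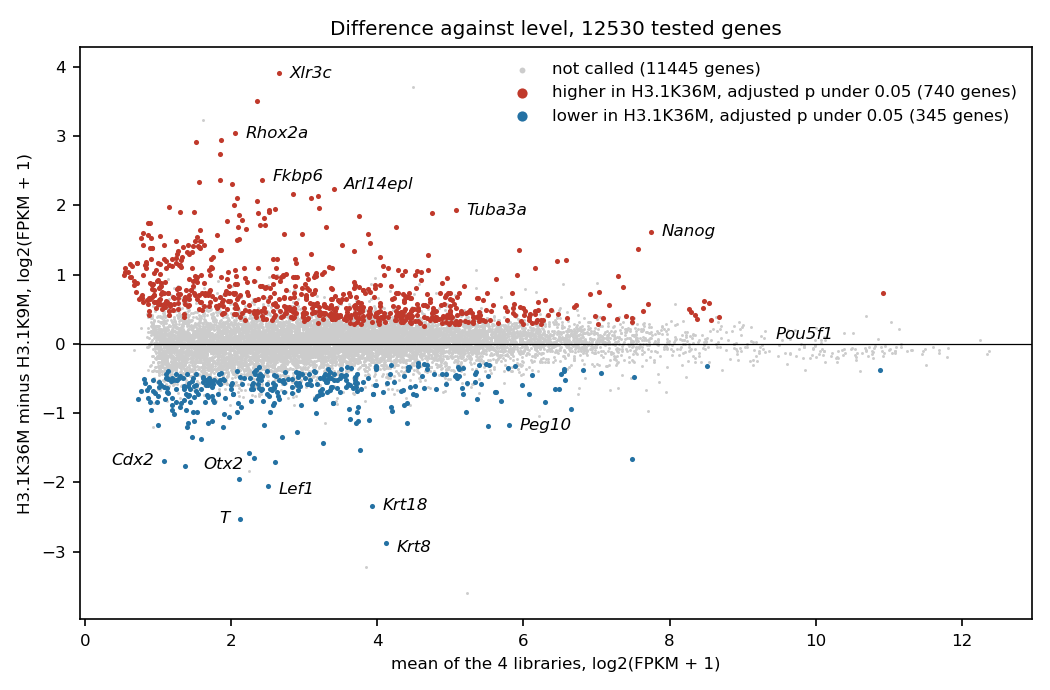
Each point is 1 of 12530 tested genes, with its mean level in the 4 libraries on the x axis and the difference H3.1K36M minus H3.1K9M on the y axis, both on the log2(FPKM + 1) scale. Red points are the 740 genes called higher and blue points the 345 called lower in H3.1K36M; Nanog stands out among highly expressed genes at 1.62, and Krt8 at -2.88 has the largest called decrease.

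The gene with the largest increase was Xlr3c, on chromosome X at 73254540-73265390 (mm10, minus strand), a member of a family of lymphocyte-regulated genes that is best known from testis and thymus. It was at 23.2 and 23.8 FPKM in H3.1K36M, against 0.763 and 0.515 FPKM in H3.1K9M and 2.10 and 1.35 FPKM in H3.1WT. The groups did not overlap, and the ratio of the means was 36.7-fold (log2 difference 3.91, SE 0.165, adjusted p = 3.19e-06). All 10 Xlr genes in the files on this chromosome were tested and all 10 were higher in H3.1K36M. The Xlr5 copies were nearly silent in H3.1K9M: their summed level was 22.7 and 25.9 FPKM in H3.1K36M and 0.830 and 0.677 FPKM in H3.1K9M. The Xlr3 copies together reached 54.8 and 57.1 FPKM in H3.1K36M, against 11.8 and 16.2 FPKM in H3.1K9M, and Xlr4 8.76 and 10.5 FPKM against 2.04 and 2.56 FPKM. Xlr3a, the copy with the smallest difference of its subfamily, was at 15.6 and 16.2 FPKM in H3.1K36M and at 7.28 and 10.3 FPKM in H3.1K9M.

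Several of these copies are so alike that the split of fragments between them rests on the model of the authors' tool, and sums over a subfamily are firmer than values of 1 copy. The RefSeq promoter windows show which copies are alike, and where a copy with a large difference departs from a neighbour. Each window runs from 250 bases before to 50 bases after the annotated start (GRCm38.p6, the assembly of mm10). The window of Xlr3c on the minus strand of chrX:73265341-73265640 and that of Xlr3b on the plus strand of chrX:73191929-73192228 overlap over 280 bases when shifted for the best match without gaps, of which 255 are identical. Capitals mark the 25 bases that differ, of which 5 lie before the start of Xlr3c and 20 after it. After the start, Xlr3b holds a short stretch that Xlr3c lacks, and beyond it the bases run alike again. The 20 marked there therefore come from this shift in a match without gaps and are not 20 single substitutions.
Xlr3c: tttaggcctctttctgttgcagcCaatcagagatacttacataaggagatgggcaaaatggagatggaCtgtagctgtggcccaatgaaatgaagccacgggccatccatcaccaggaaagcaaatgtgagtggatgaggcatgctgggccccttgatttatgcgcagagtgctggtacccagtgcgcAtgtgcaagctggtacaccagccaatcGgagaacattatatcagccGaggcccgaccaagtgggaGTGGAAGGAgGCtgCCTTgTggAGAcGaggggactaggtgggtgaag
Xlr3b: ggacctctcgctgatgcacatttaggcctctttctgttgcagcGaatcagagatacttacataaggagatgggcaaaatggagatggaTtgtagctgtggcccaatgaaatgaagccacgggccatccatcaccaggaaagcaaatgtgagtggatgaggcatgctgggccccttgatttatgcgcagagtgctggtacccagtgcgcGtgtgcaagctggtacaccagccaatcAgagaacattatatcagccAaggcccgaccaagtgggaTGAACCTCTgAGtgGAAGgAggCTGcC
Xlr3a shares 136 of 236 overlapping bases with Xlr3c. A match without gaps counts bases beyond an insertion or deletion as different, so low counts do not measure how far copies diverge. In H3.1K9M the level of Xlr3a was the highest of the Xlr3 copies and that of Xlr3c the lowest. A link between promoter sequence and level was not tested. Xlr5a and Xlr5b share 255 of 255 overlapping bases, and Rhox2a and Rhox2b 278 of 278. Without gaps, the Xlr5c window has no close match with either Xlr5 window, at 54 of 129 bases with Xlr5a and 49 of 129 with Xlr5b.

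Rhox genes are X-linked homeobox genes of the reproductive tract and placenta, and many but not all Mage genes are expressed mainly in testis and in tumours. Of 31 Rhox genes in the files, 11 were tested and 9 were higher in H3.1K36M. Of 20 Mage genes, 9 were tested and 5 were higher. Rhox5, a classical gene silenced by DNA methylation, was at 132 and 133 FPKM in H3.1K36M and at 60.7 and 53.6 FPKM in H3.1K9M, close to 52.4 and 52.7 FPKM in H3.1WT. The 8 Rhox2 copies in the files summed to 18.9 and 19.5 FPKM in H3.1K36M, against 0.952 and 0.601 FPKM in H3.1K9M. Magea5 was at 2.63 and 2.06 FPKM in H3.1K36M and is listed at 0 in both H3.1K9M libraries, so no fold is given. Rhox6 and Rhox9, placental members of the cluster, did not pass the test: Rhox6 was at 7.89 and 7.17 FPKM in H3.1K36M and at 5.93 and 4.49 FPKM in H3.1K9M, and Rhox9 differed by 0.38 on the log2 scale (adjusted p = 0.122). A list of 55 genes of these families, which leaves out Xlr itself and 4 tested Mage genes that did not pass, has 50 in the files, of which 25 were tested, 23 were higher and none lower, and the median difference was 1.54 against 0.04 over all tested genes. Of the 25, 15 entered the test only through the H3.1K36M libraries and so had to differ. Among the 10 that reached 1 FPKM in all 4 libraries, 8 were higher. With the H3.1K36M libraries averaged into 1 sample, 21 of the 25 passed. The other 437 tested genes of chromosome X had a median difference of 0.06, with 55 higher and 16 lower. H2bfm, an X-linked histone H2B variant gene, was among these 55, at 3.56 and 3.20 FPKM in H3.1K36M and at 0.206 and 0.0380 FPKM in H3.1K9M.

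**Figure D2:**
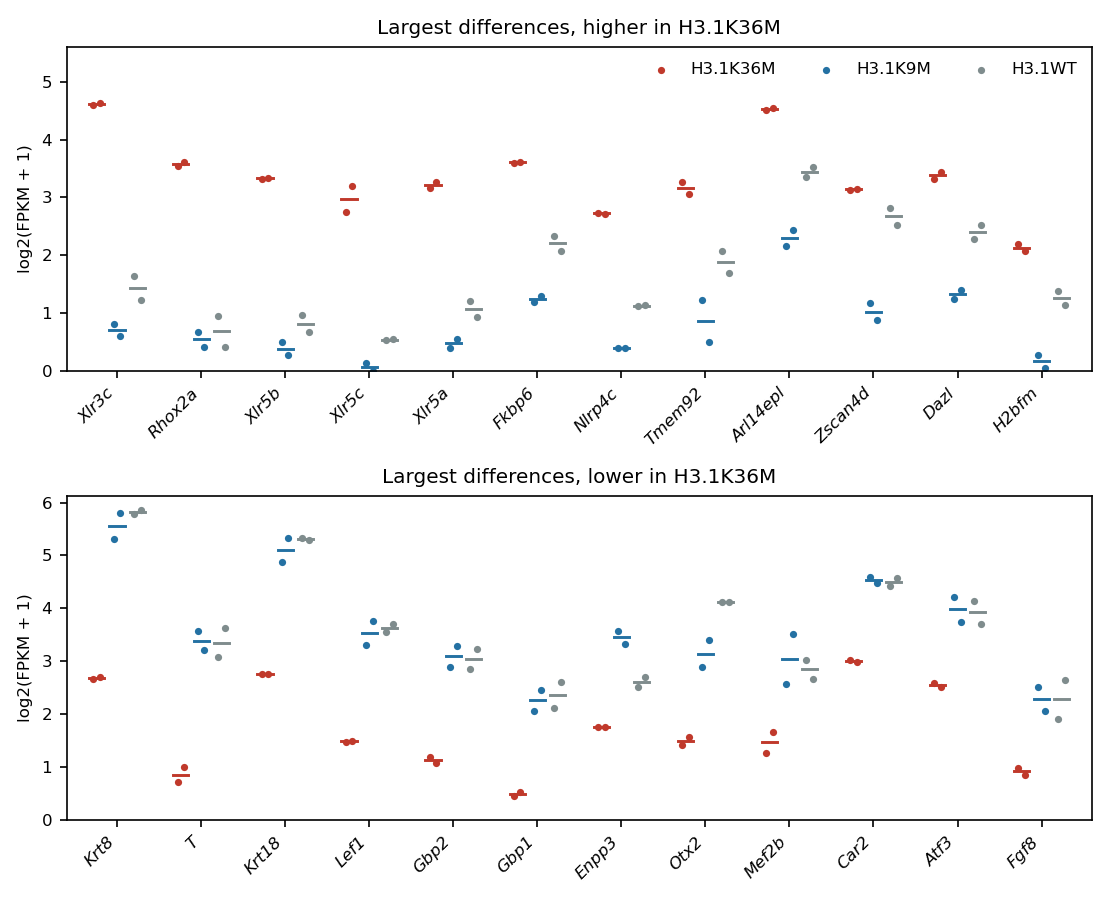
Levels on the log2(FPKM + 1) scale of the 12 genes with the largest called increase (top) and the 12 with the largest called decrease (bottom), with predicted, unnamed, small RNA and low genes skipped, in H3.1K36M, H3.1K9M and H3.1WT. Points are libraries and bars are means of 2 libraries. Red and blue points do not overlap for any of these genes, and H3.1WT sits near H3.1K9M for most of the lower genes, as for Krt8 and T.

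Genes of the 2-cell-like state, a rare and passing state of stem cell cultures that resembles the 2-cell embryo, were higher in H3.1K36M. Zscan4 genes, which act at telomeres in that state, summed over the 6 copies in the files to 46.4 and 48.8 FPKM in H3.1K36M, against 10.8 and 8.11 FPKM in H3.1K9M and 28.9 and 26.5 FPKM in H3.1WT. The H3.1WT libraries thus lay between the mutants, without overlap. In bulk RNA, more cells in this state and more RNA per cell cannot be told apart. Zscan4d, on chromosome 7 at 11161374-11166159, was at 7.78 and 7.83 FPKM in H3.1K36M and at 1.26 and 0.834 FPKM in H3.1K9M (log2 difference 2.11, SE 0.199, adjusted p = 0.000293). Its promoter window shares 259 of 266 overlapping bases with that of Zscan4f, so values of 1 copy are uncertain here too. Arl14epl was at 21.7 and 22.4 FPKM in H3.1K36M and at 3.45 and 4.38 FPKM in H3.1K9M. Tmem92 was at 8.60 and 7.38 FPKM in H3.1K36M and at 1.34 and 0.405 FPKM in H3.1K9M, and its call was lost in the fit over the 4 libraries (adjusted p = 0.0517). Of 18 tested genes of this list 16 were higher and none lower, with a median of 1.44. Of the 18, 7 entered only through H3.1K36M, and of the 7 that reached 1 FPKM in all 4 libraries 5 were higher. Averaging the H3.1K36M libraries left 12 of the 18 past the threshold. Usp26 (10.7 and 10.7 FPKM in H3.1K36M, 10.5 and 15.9 FPKM in H3.1K9M) and Snai3 (10.1 and 9.36 FPKM in H3.1K36M, 5.83 and 7.51 FPKM in H3.1K9M) did not pass.

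Oocyte genes followed the same direction. Nlrp4c, on chromosome 7 at 6045161-6105150 and a member of the NLRP family expressed in oocytes, was at 5.67 and 5.55 FPKM in H3.1K36M and at 0.321 and 0.315 FPKM in H3.1K9M, a ratio of 17.6. Nlrp4f was at 3.69 and 3.93 FPKM in H3.1K36M, against 0.830 and 0.852 FPKM in H3.1K9M, and the oocyte homeobox gene Obox6 at 2.47 and 2.33 FPKM against 0.557 and 0.541 FPKM. Khdc3, a part of the maternal subcortical complex, was at 32.5 and 32.4 FPKM in H3.1K36M and at 14.0 and 16.4 FPKM in H3.1K9M. Of 32 genes of this list in the files, 8 were tested, 7 were higher and none lower. Tle6, which belongs to the same maternal complex, was the exception, at 6.27 and 5.37 FPKM in H3.1K36M and at 6.36 and 8.70 FPKM in H3.1K9M. Only 4 of the 8 reached 1 FPKM in all 4 libraries, and 3 of these were higher. With the H3.1K36M libraries averaged, 4 of the 8 passed.

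Among germline genes that promoter DNA methylation is known to silence outside the germ line, 13 of 34 tested were higher and none lower, with a median of 0.54. Here 29 of the 34 reached 1 FPKM in all 4 libraries, and 8 of these were higher. Averaging the H3.1K36M libraries left 10 of them. Without H3.1K9M replicate 1 the counts were 13 higher and 3 lower, and without replicate 2 they were 19 higher and none lower. Fkbp6, a piRNA pathway co-chaperone on chromosome 5 at 135291704-135350044, was at 11.1 and 11.3 FPKM in H3.1K36M and at 1.30 and 1.46 FPKM in H3.1K9M, an 8.09-fold ratio (log2 difference 2.36, SE 0.123, adjusted p = 8.27e-06). Dazl, an RNA-binding regulator of germ cells, was at 8.94 and 9.89 FPKM in H3.1K36M and at 1.38 and 1.63 FPKM in H3.1K9M. Both genes were active in H3.1K9M and several times higher in H3.1K36M. Tuba3a, a testis alpha-tubulin, was at 65.8 and 64.3 FPKM in H3.1K36M and at 13.7 and 19.5 FPKM in H3.1K9M. Asz1, needed for retrotransposon silencing in male germ cells, was at 2.24 and 2.80 FPKM in H3.1K36M and at 0.183 and 0.190 FPKM in H3.1K9M, and Pdha2, a testis pyruvate dehydrogenase subunit, at 2.43 and 2.19 FPKM against 0.460 and 0.544 FPKM. In each of these genes the H3.1WT libraries lay between the mutants. Testis copies of ribosomal protein genes also rose: Rpl10l was at 101 and 92.8 FPKM in H3.1K36M, against 36.3 and 38.7 FPKM in H3.1K9M, and Rpl39l, chosen here after its values were seen, at 22.7 and 26.4 FPKM against 7.26 and 5.14 FPKM. Rpl10l and Rpl39l closely resemble parent genes that every cell expresses, so fragments may be split between them. The meiotic chromosome genes Sycp3 and Dmc1 did not pass: Sycp3 was at 4.04 and 5.28 FPKM in H3.1K36M and at 5.33 and 8.30 FPKM in H3.1K9M, and Dmc1 at 1.62 and 1.82 FPKM against 2.06 and 4.16 FPKM.

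Promoters of several germline genes hold the motif CACGTG, the E-box bound by Max and Mga, or TTCCCGC, the E2F6 motif, and Mga and E2F6 belong to a Polycomb-type complex that silences these genes in stem cells. Among the germline genes with a promoter window, 6 of 12 called higher and 9 of 19 that did not pass hold either motif on either strand, against 18.6% of 9280 tested genes with a window, 17.4% of 541 called higher and 14.8% of 257 called lower. With the motifs pooled, a like share of germline genes held one whether or not they passed. Taken singly, CACGTG was in 3 of the 12 called higher and 8 of the 19 that did not pass. TTCCCGC was in 5 of the 12 and 4 of the 19. The windows of Fkbp6 (chr5:135349995-135350294, minus strand), which holds CACGTG at 2 places, and of Tuba3a (chr6:125286032-125286331, minus strand), which holds TTCCCGC, are shown with the motifs in capitals. Both are from RefSeq on GRCm38.p6.
Fkbp6: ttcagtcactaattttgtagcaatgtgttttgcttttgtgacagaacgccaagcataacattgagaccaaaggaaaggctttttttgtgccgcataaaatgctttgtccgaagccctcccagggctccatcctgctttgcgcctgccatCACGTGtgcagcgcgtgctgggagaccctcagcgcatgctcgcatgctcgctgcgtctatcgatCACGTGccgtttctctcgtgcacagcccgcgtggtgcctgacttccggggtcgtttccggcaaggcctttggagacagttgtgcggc
Tuba3a: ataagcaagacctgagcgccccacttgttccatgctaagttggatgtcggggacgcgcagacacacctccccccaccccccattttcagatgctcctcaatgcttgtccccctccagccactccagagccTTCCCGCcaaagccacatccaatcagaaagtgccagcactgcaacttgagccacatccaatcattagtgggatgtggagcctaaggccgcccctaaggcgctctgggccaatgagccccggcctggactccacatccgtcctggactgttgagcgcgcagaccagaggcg
A match of letters does not show that the factor binds there. The ratio of observed to expected CpG was under 0.4 in 25.7% of promoter windows of higher genes and 15.6% of those of lower genes, against 12.9% of tested genes.

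Naive pluripotency factors that passed the test were all higher in H3.1K36M, while most core factors did not pass. Nanog, a homeobox factor of the naive state on chromosome 6 at 122707489-122714633, was at 378 and 373 FPKM in H3.1K36M, against 109 and 136 FPKM in H3.1K9M and 184 and 199 FPKM in H3.1WT. The 3 groups did not overlap, and the ratio of H3.1K36M to H3.1K9M was 3.06 (log2 difference 1.62, SE 0.169, adjusted p = 0.000471). Prdm14, which keeps DNA methylation low in the naive state, was at 8.51 and 8.34 FPKM in H3.1K36M and at 3.29 and 2.77 FPKM in H3.1K9M. Tfcp2l1 was at 33.2 and 34.4 FPKM in H3.1K36M, against 13.7 and 18.5 FPKM in H3.1K9M and 16.9 and 18.6 FPKM in H3.1WT, so here H3.1WT sat with H3.1K9M. Fbxo15, a target of Pou5f1 and Sox2, showed the other order, at 102 and 106 FPKM in H3.1K36M, 43.7 and 52.9 FPKM in H3.1K9M and 88.4 and 85.6 FPKM in H3.1WT. Tcl1, an Akt coactivator, was at 41.7 and 42.4 FPKM in H3.1K36M and at 20.7 and 21.7 FPKM in H3.1K9M, and Fgf4, the ligand through which stem cells signal to themselves, at 48.5 and 46.9 FPKM against 23.2 and 29.9 FPKM. All 25 genes of the naive list were tested and reached 1 FPKM in all 4 libraries, 13 were higher and none lower, and the median was 0.62. That count fell to 5 with the H3.1K36M libraries averaged and to 4 in the fit over the 4 libraries. Klf2 (213 and 212 FPKM in H3.1K36M, 184 and 228 FPKM in H3.1K9M) and Klf5, naive factors of the Krüppel family, did not pass, and neither did Gbx2. Of 23 core and general pluripotency genes, 1 was higher and 1 lower, with a median of 0.12. These were Dppa2, at 56.4 and 58.0 FPKM in H3.1K36M and at 39.2 and 29.7 FPKM in H3.1K9M, and Lin28b, a let-7 inhibitor that falls in the naive state, at 3.55 and 4.01 FPKM in H3.1K36M and at 6.77 and 7.92 FPKM in H3.1K9M, both named after their values were seen. With the H3.1K36M libraries averaged none of the core genes was higher and 1 was lower, and without H3.1K9M replicate 1 there were 3 of each.

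**Figure D3:**
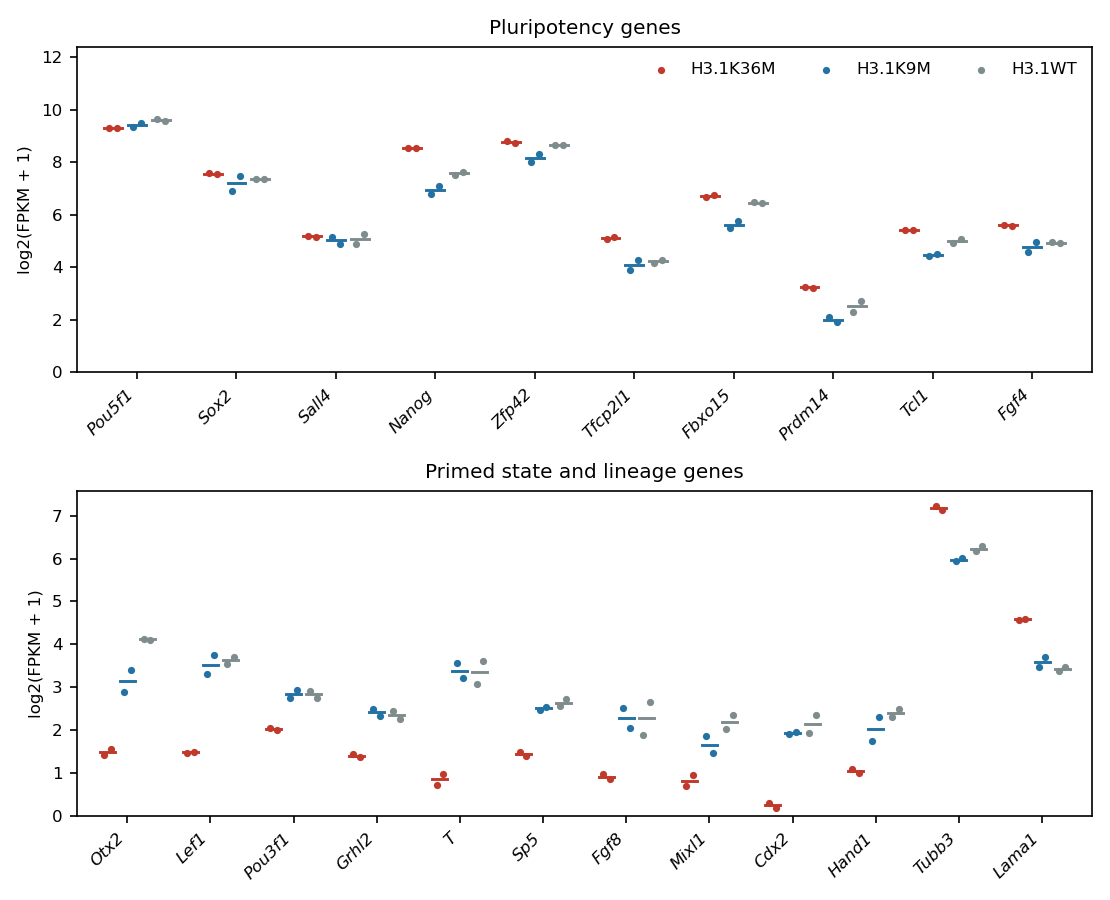
Levels on the log2(FPKM + 1) scale of pluripotency genes (top) and of primed state and lineage genes (bottom) in H3.1K36M, H3.1K9M and H3.1WT, with points for libraries and bars for means of 2 libraries. Nanog is highest in H3.1K36M and lowest in H3.1K9M, Pou5f1 did not pass the test, and Otx2, Lef1, T and Cdx2 are lowest in H3.1K36M.

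Genes of the primed and formative state were lower where they differed, apart from Sox3. Otx2, a homeobox factor that drives exit from the naive state, was at 1.68 and 1.97 FPKM in H3.1K36M, against 6.43 and 9.49 FPKM in H3.1K9M and 16.5 and 16.3 FPKM in H3.1WT. Both mutants were thus below H3.1WT and H3.1K36M was the lowest (log2 difference -1.65, SE 0.162, adjusted p = 0.000341, or 0.0523 in the fit over the 4 libraries). Pou3f1 was at 3.12 and 3.02 FPKM in H3.1K36M and at 5.75 and 6.66 FPKM in H3.1K9M, and Grhl2, which opens epithelial enhancers in the formative state, at 1.72 and 1.58 FPKM against 4.65 and 4.05 FPKM. Of 15 tested genes, 5 were lower and 1 was higher, with a median of -0.22, and 4 were lower and none higher when the H3.1K36M libraries were averaged. Without H3.1K9M replicate 1 the same 15 genes had a median of 0.05, with 5 lower. The higher one, Sox3, was at 3.96 and 4.17 FPKM in H3.1K36M and at 2.38 and 2.46 FPKM in H3.1K9M and barely passed (adjusted p = 0.0494). The de novo methyltransferase Dnmt3b, also a marker of this state, was at 48.2 and 49.95 FPKM in H3.1K36M and at 46.3 and 46.8 FPKM in H3.1K9M.

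Primitive streak and mesoderm genes were lower in H3.1K36M: 9 of 16 tested fell and none rose, with a median of -0.55. T, the brachyury factor of the streak on chromosome 17 at 8434423-8442496, was at 0.643 and 0.981 FPKM in H3.1K36M, against 10.9 and 8.22 FPKM in H3.1K9M and 7.44 and 11.3 FPKM in H3.1WT, an 11.7-fold ratio of H3.1K9M to H3.1K36M (log2 difference -2.53, SE 0.27, adjusted p = 0.000539). Other streak genes were at low levels in H3.1K36M and H3.1K9M. Mixl1 was at 0.621 and 0.923 FPKM in H3.1K36M and at 2.65 and 1.74 FPKM in H3.1K9M, and Fgf8, a streak ligand, at 0.959 and 0.806 FPKM against 4.67 and 3.15 FPKM. Of the 16 genes, 4 entered the test only through H3.1K9M, and among the 10 that reached 1 FPKM in all 4 libraries 4 were lower. There were 2 calls after averaging the H3.1K36M libraries, 2 in the fit over the 4 libraries, 5 without H3.1K9M replicate 1 and 6 without replicate 2. Part of this group are targets of Wnt signalling. Lef1, the nuclear partner of beta-catenin, was at 1.76 and 1.81 FPKM in H3.1K36M and at 8.85 and 12.5 FPKM in H3.1K9M, and Sp5, a direct Wnt target, at 1.82 and 1.63 FPKM against 4.58 and 4.79 FPKM. The receptor gene Fzd7 was at 12.3 and 12.3 FPKM in H3.1K36M and at 22.9 and 24.98 FPKM in H3.1K9M. Over the Wnt list 5 of 22 were lower and 2 higher, with a median of -0.15, and Axin2, the standard feedback target, did not pass, at 5.51 and 5.14 FPKM in H3.1K36M and 5.74 and 5.48 FPKM in H3.1K9M (adjusted p = 0.811). The ligand Wnt7b was higher, at 3.06 and 2.78 FPKM in H3.1K36M and at 1.35 and 1.38 FPKM in H3.1K9M. With the H3.1K36M libraries averaged, 2 Wnt genes were lower and none higher, and without H3.1K9M replicate 2 there were 4 of each. Of 21 Nodal and BMP pathway genes 3 were lower and none higher, namely Msx1, Msx2 and Skil. Of 19 genes of FGF and ERK feedback 3 were lower, Fgf8, Dusp4 and Dusp6, and Fgf4 was higher. No gene of the Nodal and BMP list or of the FGF list passed with the H3.1K36M libraries averaged. Without H3.1K9M replicate 1 the Nodal and BMP list had 2 genes higher and 2 lower, and without replicate 2 the FGF list had 2 higher and 4 lower. Dusp6, a phosphatase that reports ERK activity, was at 16.8 and 16.3 FPKM in H3.1K36M and at 28.0 and 27.9 FPKM in H3.1K9M, while H3.1WT, at 15.2 and 21.0 FPKM, sat nearer to H3.1K36M.

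The largest decrease among called genes was in a simple epithelial keratin. Krt8, on chromosome 15 at 101996698-102004482, was at 5.35 and 5.49 FPKM in H3.1K36M, against 38.8 and 54.8 FPKM in H3.1K9M and 54.3 and 57.1 FPKM in H3.1WT, an 8.63-fold ratio of H3.1K9M to H3.1K36M (log2 difference -2.88, SE 0.136, adjusted p = 3.68e-06). Krt18, which pairs with Krt8 in filaments and lies beside it at 102028180-102032027, was at 5.76 and 5.79 FPKM in H3.1K36M and at 28.3 and 39.1 FPKM in H3.1K9M. Krt19 was at 30.9 and 27.7 FPKM in H3.1K36M and at 52.0 and 88.3 FPKM in H3.1K9M. The trophectoderm factor Cdx2 was at 0.229 and 0.139 FPKM in H3.1K36M, against 2.74 and 2.89 FPKM in H3.1K9M, so it was almost silent in H3.1K36M. Cdx2 entered the test only through H3.1K9M and so had to differ. Tfap2c, another trophectoderm factor that is also active in naive cells, went the other way, at 20.7 and 18.9 FPKM in H3.1K36M and 10.1 and 11.7 FPKM in H3.1K9M. Among the 14 trophectoderm and placenta genes that reached 1 FPKM in all 4 libraries, 4 were lower and 3 higher. Of 17 tested trophectoderm and placenta genes 6 were lower and 3 higher, with a median of -0.02, and 3 were lower and 1 higher with the H3.1K36M libraries averaged. Without H3.1K9M replicate 1 there were 6 lower and 1 higher, and without replicate 2 there were 3 lower and 4 higher. Of 28 epithelial junction and keratin genes 7 were lower and 1 higher, with a median of -0.33, and 4 were lower when the H3.1K36M libraries were averaged. This count was 14 lower without H3.1K9M replicate 1 and 5 lower without replicate 2. In all, 15 called genes count in 2 lists, so list counts are not independent. These are Krt8, Krt18, Krt19, Lef1, Grhl2, Sp5, Wnt3, Msx1, Msx2, Hand1, Fgf8, Fgf4, Atf3, Zfp57 and Sfrp1. Epcam, a stem cell adhesion protein, was at 37.6 and 38.4 FPKM in H3.1K36M and at 60.8 and 76.1 FPKM in H3.1K9M, and desmoplakin, Dsp, at 4.29 and 4.14 FPKM against 7.21 and 7.69 FPKM. E-cadherin, Cdh1, did not pass (135 and 133 FPKM in H3.1K36M, 112 and 129 FPKM in H3.1K9M). Outside these lists, the carbonic anhydrase gene Car2 was at 7.15 and 6.88 FPKM in H3.1K36M and at 23.1 and 21.4 FPKM in H3.1K9M. The ectonucleotidase gene Enpp3 was at 2.38 and 2.36 FPKM in H3.1K36M, against 10.9 and 9.05 FPKM in H3.1K9M and 4.66 and 5.52 FPKM in H3.1WT, so that H3.1WT lay between. Mef2b, a transcription factor gene, was at 1.41 and 2.14 FPKM in H3.1K36M and at 4.90 and 10.5 FPKM in H3.1K9M.

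Some lineage genes rose in H3.1K36M. The neuronal tubulin Tubb3 was at 149.6 and 140.1 FPKM in H3.1K36M and at 60.4 and 63.5 FPKM in H3.1K9M, and Fabp7, a radial glia lipid binder, at 5.80 and 6.49 FPKM against 2.79 and 0.684 FPKM. Of 14 tested neural and ectoderm genes 4 were higher and 2, Sox11 and Pax6, were lower, with a median of 0.17, and 1 was higher with the H3.1K36M libraries averaged. Without H3.1K9M replicate 2 there were 2 higher and 1 lower, with a median of -0.13. Of 15 primitive and visceral endoderm genes 3 were higher and none lower, with a median of 0.11. These were Cited1 (8.15 and 8.06 FPKM in H3.1K36M, 2.72 and 3.06 FPKM in H3.1K9M), the laminin gene Lama1 (22.9 and 23.1 FPKM in H3.1K36M, 10.1 and 12.1 FPKM in H3.1K9M) and Amn. The endoderm factor Gata4 was at 0.698 and 0.799 FPKM in H3.1K36M and at 1.14 and 1.56 FPKM in H3.1K9M and did not pass. The endoderm count was also 3 higher with the H3.1K36M libraries averaged, and without H3.1K9M replicate 1 there were 5 higher and 1 lower. Of 4 tested endothelial and blood markers, 1 was higher, also with averaging.

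**Figure D4:**
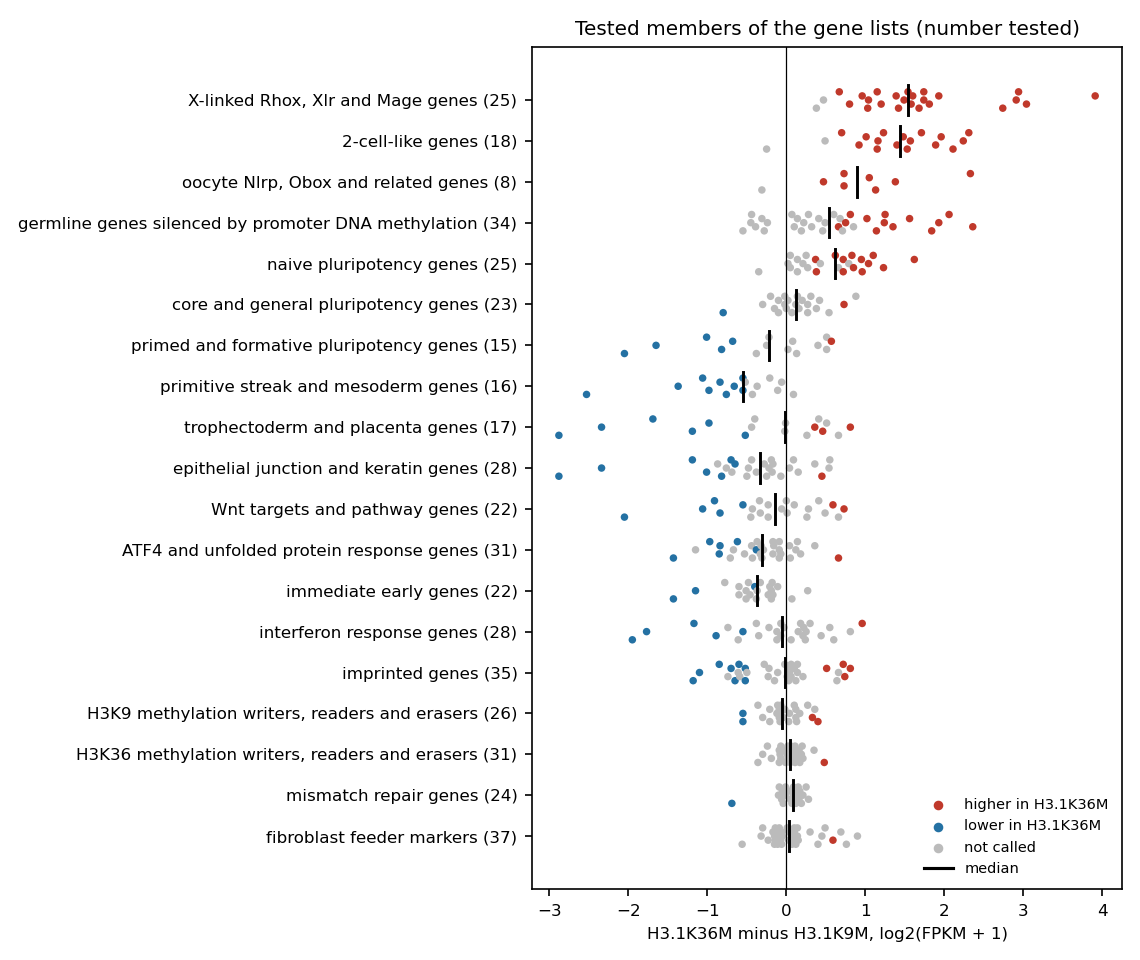
Difference H3.1K36M minus H3.1K9M on the log2(FPKM + 1) scale for the tested members of 19 gene lists, with the number tested in brackets. Points are genes, red where called higher, blue where called lower and grey where not called, and black bars are medians. The lists run from a median of 1.54 for the X-linked families, through 0.62 for naive genes, to -0.55 for primitive streak and mesoderm genes, and mismatch repair genes crowd around 0.09.

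Stress and signalling genes that passed were mostly lower. In the list for ATF4 and the response to unfolded proteins, with 31 tested genes, 6 were lower and 1 higher, with a median of -0.31. Atf4 itself, the factor of the integrated stress response, was at 57.0 and 57.8 FPKM in H3.1K36M, against 96.2 and 112 FPKM in H3.1K9M and 82.2 and 81.4 FPKM in H3.1WT (adjusted p = 0.00112). Its targets Stc2 (12.5 and 11.9 FPKM in H3.1K36M, 22.0 and 28.1 FPKM in H3.1K9M) and Pck2 (7.22 and 6.44 FPKM in H3.1K36M, 11.2 and 15.3 FPKM in H3.1K9M) were also lower. Chaperone genes such as Hspa5 did not pass, and Sdf2l1, a chaperone cofactor of the endoplasmic reticulum, was higher. Of 22 immediate early genes 3 were lower and none higher, with a median of -0.38: Atf3 was at 5.03 and 4.66 FPKM in H3.1K36M and at 17.6 and 12.3 FPKM in H3.1K9M, Klf6 at 13.4 and 13.1 FPKM against 35.4 and 26.3 FPKM, and Egr2 was low in all groups. Of 28 interferon response genes 5 were lower and 1 higher, with a median of -0.05. The GTPase gene Gbp2 was at 1.28 and 1.11 FPKM in H3.1K36M and at 6.38 and 8.81 FPKM in H3.1K9M, its neighbour in the family Gbp1 at 0.354 and 0.442 FPKM against 3.15 and 4.50 FPKM, and the immunoproteasome gene Psmb8 at 2.67 and 2.62 FPKM against 6.66 and 7.77 FPKM. Oas1a was the higher one, at 7.05 and 8.08 FPKM in H3.1K36M and at 3.72 and 3.096 FPKM in H3.1K9M, and type I targets such as Isg15 and Ifit1 did not pass. Averaging the H3.1K36M libraries left 4 of the stress response genes, 2 of the immediate early genes and 3 of the interferon genes lower and none higher. After median-of-ratios scaling 6 immediate early genes were lower. In the fit over the 4 libraries no gene of the stress response or immediate early lists passed, and 3 interferon genes were lower. The median of the stress response list was -0.35 without H3.1K9M replicate 1 and -0.17 without replicate 2. The interferon median was 0.20 without H3.1K9M replicate 1 and -0.34 without replicate 2.

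Most of the genes for the enzymes of the marks themselves did not pass the test. Of 26 tested writers, readers and erasers of H3K9 methylation 2 were lower and 2 higher, with a median of -0.05. That is 15.4% called, against 8.66% of all tested genes. Suv39h1, on chromosome X at 8061171-8074760, was at 6.92 and 7.58 FPKM in H3.1K36M, against 11.2 and 11.02 FPKM in H3.1K9M and 10.3 and 12.2 FPKM in H3.1WT (adjusted p = 0.012, and 0.103 in the fit over the 4 libraries). Jmjd1c was the other lower gene, and Setdb1 and Setdb2 were higher, Setdb1 at 25.3 and 25.7 FPKM in H3.1K36M and at 21.0 and 19.02 FPKM in H3.1K9M. Suv39h2 did not pass (5.59 and 5.36 FPKM in H3.1K36M, 5.64 and 6.46 FPKM in H3.1K9M). Of 31 genes of H3K36 methylation 1 was higher, with a median of 0.05. This was Brwd1, at 24.8 and 25.1 FPKM in H3.1K36M and 16.9 and 18.4 FPKM in H3.1K9M, a gene on chromosome 16, which is taken up further on. Setd2, the main writer of trimethylation at lysine 36, was at 18.3 and 18.9 FPKM in H3.1K36M and at 16.7 and 15.7 FPKM in H3.1K9M (adjusted p = 0.148). Of 24 mismatch repair genes 1 was lower and none higher, with a median of 0.09, and Msh6 was at 128 and 127 FPKM in H3.1K36M and at 100.3 and 121 FPKM in H3.1K9M (adjusted p = 0.191). The lower one, the polymerase delta subunit gene Pold4, was at 7.01 and 6.58 FPKM in H3.1K36M and at 11.8 and 11.4 FPKM in H3.1K9M (log2 difference -0.69, SE 0.118, adjusted p = 0.00728). Of 18 DNA methylation genes 1 passed, Zfp57, which guards imprints (154 and 154 FPKM in H3.1K36M, 127 and 111 FPKM in H3.1K9M). After median-of-ratios scaling none of the H3K9 genes was higher, and the medians of the H3K36 and DNA methylation lists were -0.01. Of 31 Polycomb genes, Cbx2 and E130012A19Rik, also called Epop, were higher and Phc1 was lower. Both higher genes lie on chromosome 11, which is also taken up further on. Epop was at 218 and 218 FPKM in H3.1K36M and at 144 and 106 FPKM in H3.1K9M, where replicate 1 was the higher library. Cbx2 was at 10.6 and 10.7 FPKM in H3.1K36M and at 7.06 and 8.53 FPKM in H3.1K9M. In the fit over the 4 libraries no gene of the H3K9, H3K36, mismatch repair, DNA methylation or Polycomb lists passed. Averaging the H3.1K36M libraries left 1 H3K9 gene lower and no call in the other 4 lists. The counts also moved with 1 H3.1K9M library: without replicate 2 there were 6 mismatch repair genes higher and 1 lower, and without replicate 1 none was higher and 2 were lower, with a median of -0.04. Polycomb genes were then 2 higher and 4 lower. None of 10 tested replication-dependent H3 genes passed, also with averaging, 1 was higher without H3.1K9M replicate 1, and mRNA capture reads these genes poorly because their transcripts mostly lack a poly(A) tail, so they say nothing of the transgenes.

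Imprinted genes moved in both directions, 4 higher and 8 lower of 35 tested, with a median of -0.02. Peg10, a retrotransposon-derived placental gene on chromosome 6 at 4747306-4760517, was at 35.9 and 36.5 FPKM in H3.1K36M and at 70.2 and 98.6 FPKM in H3.1K9M, and its neighbour Sgce was lower with it. Peg3, a zinc finger gene, was at 9.09 and 9.21 FPKM in H3.1K36M and at 16.1 and 26.6 FPKM in H3.1K9M. The maternally expressed noncoding RNAs Meg3, Rian and Mirg of chromosome 12 were lower together: Meg3 was at 69.2 and 67.2 FPKM in H3.1K36M, against 107.8 and 107.0 FPKM in H3.1K9M and 79.7 and 68.8 FPKM in H3.1WT, and Rian at 37.9 and 37.5 FPKM in H3.1K36M, 63.0 and 60.8 FPKM in H3.1K9M and 45.1 and 40.2 FPKM in H3.1WT. For these, H3.1K9M stood apart from the other groups. Plagl1 (8.43 and 8.32 FPKM in H3.1K36M, 4.94 and 4.27 FPKM in H3.1K9M), Sfmbt2, Cobl and Ddc were higher. With the H3.1K36M libraries averaged, 1 imprinted gene was higher and 2 were lower.

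Calls were not spread evenly over chromosomes. On chromosome 16, 67 of 382 tested genes were higher in H3.1K36M (17.5%) and 3 were lower, and 79.1% of its genes had a difference above 0. The median difference there was 0.194, against -0.016 to 0.084 on the other autosomes. Relative to the H3.1WT mean the chromosome 16 median was 0.20 and 0.21 in the H3.1K36M libraries and -0.03 and 0.00 in the H3.1K9M libraries. The shift ran along the chromosome, with medians of 0.14 to 0.24 in 5 windows of 20 megabases. On chromosome X, 79 of 467 tested genes were higher (16.9%) and 16 lower, with a median of 0.079, and the families described above supplied 24 of the 79. On chromosome 11 the median of H3.1K9M replicate 1 was -0.12 relative to H3.1WT, and that of replicate 2 was -0.02. Of its 1083 tested genes 6.65% were higher and 2.68% lower, near the shares of 5.91% and 2.75% over all tested genes. Of 6 tested Y-linked genes 4 were higher in H3.1K36M, and the count was also 4 with the H3.1K36M libraries averaged. Zfy1 and Kdm5d entered only through H3.1K36M and so had to differ. Of the 4 that reached 1 FPKM in all 4 libraries, Uba1y and Ddx3y passed, and Eif2s3y (adjusted p = 0.0894) and Uty (adjusted p = 0.127) did not. Uba1y was at 6.49 and 6.55 FPKM in H3.1K36M, 2.38 and 2.71 FPKM in H3.1K9M and 8.09 and 7.43 FPKM in H3.1WT. Chromosome number was not tested. Leaving out the genes of chromosomes 11, 16 and Y, an alternative chosen after seeing the data, left 590 genes higher and 305 lower. That setting removes genes and does not retest them, so part of its list counts was fixed in advance. Brwd1, Sdf2l1, Cbx2, E130012A19Rik and Cobl, all called higher, lie on chromosomes 11 or 16 and were taken out. No gene was called among the 24 Polycomb and 27 H3K36 members still tested, and of the Polycomb calls only Phc1 on chromosome 6 was retested. The core pluripotency and ATF4 lists had none higher, and imprinted genes were 2 higher and 7 lower.

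**Figure D5:**
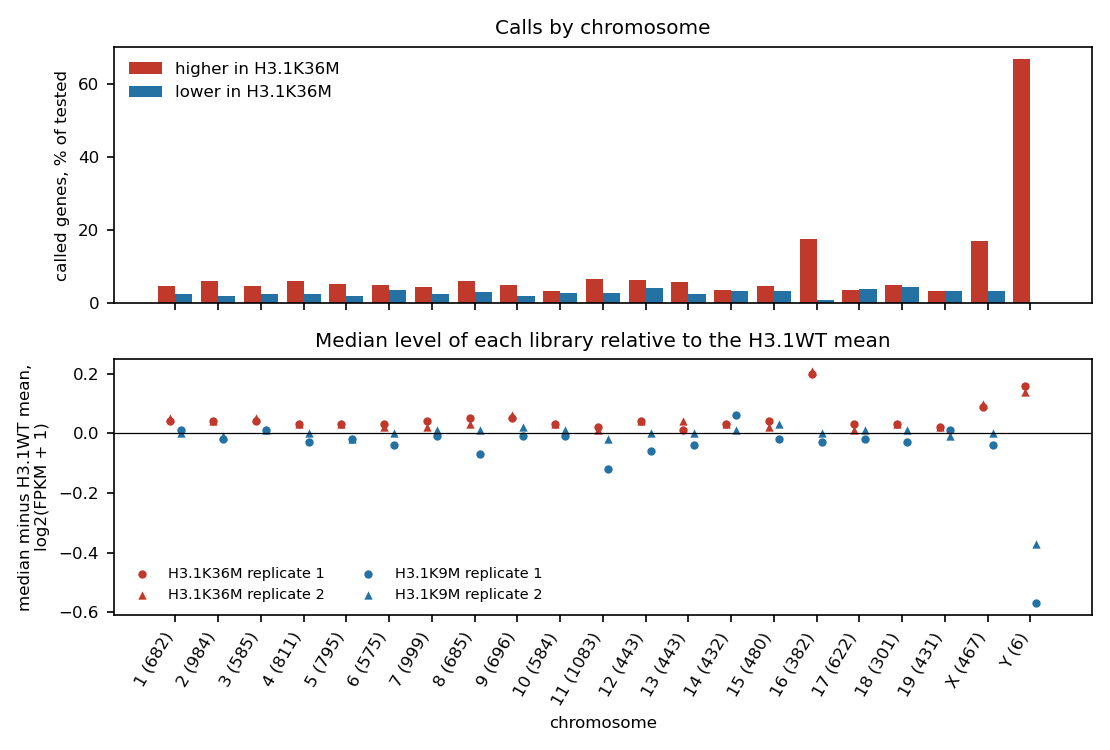
The top panel gives the share of tested genes called higher (red) and lower (blue) in H3.1K36M for each chromosome, in percent, with the number tested in brackets on the x axis. The bottom panel gives the median over genes of each library minus the H3.1WT mean on the log2(FPKM + 1) scale. Chromosome 16 stands out at 0.20 and 0.21 in H3.1K36M, and the Y chromosome is low in both H3.1K9M libraries.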

How the data were processed

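The deposited files hold 1 FPKM value per gene symbol and library, made by the authors; the unit was inferred from the values. TopHat2 (2.0.13), Cuffdiff (2.2.1) and the build mm10 appear in the submitters' processing notes. The sources used here do not give what each tool did, which annotation was used or how libraries were scaled. Per the labels, both a NEBNext Ultra and a TruSeq v2 kit were used, with no word on the libraries each served. Positions are from GENCODE M21 (GRCm38, which is mm10), and promoter windows are from RefSeq.

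Depth was recovered from single-transcript genes: 63.4% to 73.0% of 398 to 445 low values per library were whole fragments within 0.05, against 4.53% to 6.07% at other depths, after lengths were shortened by 180 to 190 bases. Intervals were not computed, and the counting check covers counting error only. The test was limma 3.58.1 in R 4.3.3 on log2(FPKM + 1) as deposited, with an intensity trend, 12 libraries, 6 group means and 6 residual degrees of freedom, two-sided, with Benjamini-Hochberg adjustment over 12530 genes and a threshold of 0.05. A difference on this scale understates the change of low genes, and folds are ratios of mean FPKM. H3.1K9M varied more than the shared spread, so p-values can be too small. The script was tested on simulated data.

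The members and the 34 gene lists were chosen with earlier results of these data known. Named were up to 12 genes each way with the largest difference among called genes with at least 3 FPKM in the higher group and no overlap, skipping predicted, unnamed and small RNA genes, then the 6 members with the smallest p of each list described, and Suv39h1, Suv39h2 and Setd2. Other members were named after their values were seen. The result of 1 list is not reported here. Of 23354 genes, 21719 matched the annotation by symbol and 1274 by an older symbol. Alternatives are in the closing section.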

Additional observations from a re-analysis of the deposited data

How the results depend on the processing

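The counts of higher and lower genes were 740 and 345. They stayed within 1.5 times with a pseudocount of 0.1, without the filter, and under both rescalings. They moved to 493 and 201 with a minimum of 5 FPKM, which tests fewer genes, to 365 and 141 with library quality weights, to 389 and 151 in a fit over the 6 overexpression libraries, to 99 and 25 in a fit over the 4 libraries, and to 200 and 49 when the test was against a 1.2-fold change. Leaving out each library in turn gave 210 to 990 higher and 59 to 625 lower genes. Without H3.1K36M replicate 1 there were 210 and 62, without H3.1K36M replicate 2 there were 214 and 59, and without H3.1K9M replicate 1 there were 840 and 625; the group left with 1 library was assumed to vary like the others. Of alternatives chosen after seeing the data, the H3.1K36M libraries averaged into 1 gave 212 and 55, and the feeder marker mean as a covariate gave 1183 and 730; the cause was not tested. Leaving out either H3.1K9M library lost part of the 740 higher and 345 lower calls, although the counts rose. With the replicate number as a block the counts were 749 and 336. Same-numbered H3.1K36M and H3.1K9M libraries correlated in their deviations at -0.11, and the crossed pairing gave 835 and 423. The 105 called genes picked by the naming rule were followed under 16 settings, all but the crossed pairing and the chromosomes left out. None reversed where it had a value, and 78 had one with a minimum of 5 FPKM. The fits over 4 and 6 libraries, the replicate block, the quality weights and the 1.2-fold test keep each difference as it was. None of the 105 could reverse under those. In the fit over the 4 libraries 44 kept their call, and with the feeder covariate 105 did. Of the 24 genes with the largest differences, Tmem92, Otx2 and Atf3 lost it in the fit over the 4 libraries, and Mef2b and Fgf8 also in the fit over 6, without either H3.1K36M replicate and with those libraries averaged. Depth limits genes near 1 FPKM: 307 of the 1085 calls had a mean under 3 FPKM in the 4 libraries.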

Other observations

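Other lists had few calls in number, to be read against 8.66% called over all tested genes. The called share was 7.69% for glycolysis and hypoxia, 8.70% for p53 targets, 5% for base excision repair and 7.41% for homologous recombination. It was 18.2% for the 11 retinoic acid genes, where Cyp26a1 entered only through H3.1K9M and so had to differ. Of 26 glycolysis and hypoxia genes 2 were lower and none higher in H3.1K36M, with a median difference of -0.26: the oxygen sensor gene Egln3 was at 14.4 and 13.9 FPKM in H3.1K36M and at 21.0 and 35.1 FPKM in H3.1K9M, and Pdk1 at 28.2 and 27.5 FPKM against 33.4 and 44.3 FPKM. Without H3.1K9M replicate 1 this count was 11 lower with a median of -0.44, without replicate 2 it was 1 lower with a median of -0.02, and with the H3.1K36M libraries averaged it was 0 by limma. Of 11 retinoic acid genes, Cyp26a1, which degrades retinoic acid, was lower (0.796 and 0.682 FPKM in H3.1K36M, 3.03 and 2.98 FPKM in H3.1K9M) and Crabp1, which binds it, was higher (99.8 and 93.6 FPKM in H3.1K36M, 57.4 and 66.9 FPKM in H3.1K9M). Of 23 p53 targets, Gadd45a was lower (15.0 and 14.5 FPKM in H3.1K36M, 27.1 and 28.0 FPKM in H3.1K9M) and Gtse1 higher, while Cdkn1a and Mdm2 did not pass. Averaging the H3.1K36M libraries left 1 p53 target lower and none higher, and 1 retinoic acid gene each way. The repair lists had 1 higher of 20 in base excision repair, the uracil glycosylase gene Ung, and 2 higher of 27 in homologous recombination, Rbbp8 and Brip1. No call of either repair list was made with the H3.1K36M libraries averaged, and without H3.1K9M replicate 2 the recombination list had 7 higher.

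Among abundant genes outside the lists, chosen after their values were seen, the creatine kinase gene Ckb was at 309 and 301 FPKM in H3.1K36M, against 107 and 128 FPKM in H3.1K9M and 139 and 148 FPKM in H3.1WT, a 2.59-fold ratio (limma adjusted p = 0.000293). Metallothionein Mt2 was at 2548 and 2463 FPKM in H3.1K36M and at 1232 and 1826 FPKM in H3.1K9M.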
